A study of Rattus norvegicus with 6 samples.

Results

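Transforming growth factor β (TGF-β) signals through a small set of membrane and cytoplasmic proteins, and the RNA of 6 genes that encode them was followed in rat chondrocytes, of 18420 genes in the deposited table. Tgfbr1, Tgfbr2 and Tgfbr3 (gene IDs 29591, 81810 and 29610) encode receptors, Smad2 and Smad3 (29357 and 25631) encode receptor-regulated SMADs, and Smad4 (50554) encodes the common SMAD that both of them bind. The 6 genes were chosen by symbol, and all 6 were in the table and passed the filter on low counts.

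The ligand binds the type II receptor, TGFBR2, which then phosphorylates the type I receptor, TGFBR1, also called ALK5. TGFBR3, or betaglycan, is a co-receptor that presents ligand to TGFBR2 and has no kinase of its own. TGFBR1 phosphorylates SMAD2 and SMAD3, which enter the nucleus with SMAD4 and act on target genes. In articular cartilage this pathway is known for matrix synthesis and for holding chondrocytes back from hypertrophy. RNA-seq measures the RNA of these genes and not the phosphorylation of their proteins.

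The 3 libraries of the TNF-α group came from primary chondrocytes of the knees and hips of wild-type male Sprague-Dawley rats, exposed during 6 h to TNF-α at 10 ng/mL. The 3 libraries of the TNF-α+NFL group came from such cells after the same exposure and a further 24 h with Nanofat lysate (NFL), the cleared freeze–thaw lysate of cells from rat abdominal fat. Both groups therefore carried TNF-α, and no untreated group was analysed here. Harvest was at 6 h in one group and at 30 h in the other, so NFL and time cannot be told apart. The cells were at the third passage. The replicates are described as biological, without saying whether they were separate cultures or animals, so a p-value measures only the spread between these libraries.

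Each library held between 19344893 and 19725135 estimated counts. All 8 chondrocyte markers checked were detected, with Sox9 at a mean of 4.54 TPM, Acan at 5.33 TPM and Col2a1 at 8.47 TPM. TPM is a level scaled to transcript length and to an equal total in each library. Comp, Hapln1, Matn3 and Col9a1 were between 0.895 and 8.64 TPM, and Col11a1 was far higher, at 460 TPM. Of the fibroblast-type markers, Thy1 was at 2565 TPM and Col1a1 at 1265 TPM, both above Col11a1. Col3a1 at 412 TPM, Pdgfrb at 390 TPM and Col1a2 at 141 TPM were below Col11a1 and above the other chondrocyte markers. The adipocyte markers summed to between 31.6 and 38.5 TPM, nearly all of it Fabp4, while Adipoq reached at most 4 counts. Among macrophage markers Cd14 and Cd68 were detected, and Ptprc reached at most 7 counts. Csf1r reached 40 counts and 1.12 TPM in TNF-α replicate 1, against 0.03 to 0.18 TPM in the other libraries. The endothelial markers summed to at most 0.29 TPM, with Kdr at 0. TNF-α replicate 1 stood apart from TNF-α replicate 3 on the first principal component, at -21.2 against 22.7, with 26.1% of the variance. Every direction rests on the deposited group labels alone, with no gene in the design that would check them. The study's own sources are at odds over which group is the higher one, and exchanged group names would reverse every direction given here.

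The receptor and SMAD genes differed widely in level from each other and little between the groups. Tgfbr2 had the highest level of the 6, at 147 ± 8.88 TPM (SD, n = 6), above 91.4% of all tested genes. Smad4 followed at 60.2 ± 1.57 TPM (SD, n = 6), Smad3 at 44.1 ± 2.17 and Smad2 at 37.2 ± 1.61. Tgfbr3 came next at 25.2 ± 2.04 TPM (SD, n = 6), and Tgfbr1 had the lowest level, at 18.7 ± 1.05, above 51.7% of tested genes. No neighbours in this order overlapped in any library. FPKM, another level scaled to length, keeps the order within a library by construction.

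Within the wider receptor family, Tgfbr2 was the most abundant type I or type II receptor RNA. The closest other type II receptor was Bmpr2, a receptor for bone morphogenetic proteins (BMPs), at a mean of 37.9 TPM, and the activin receptor Acvr2a was at 16.9 TPM. Tgfbr1 was not the highest of the type I receptors. Bmpr1a, a BMP receptor, was at 48.5 TPM, Acvr1 at 31.3 TPM, Acvrl1 at 17.1 TPM and Acvr1b at 13.7 TPM. Among co-receptors, Eng (endoglin) was at 85.5 TPM and Nrp2 at 247 TPM, both above Tgfbr3.

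Among the SMADs, Smad4 lay closest to Smad6, an inhibitory SMAD with a mean of 58.3 TPM, and the ranges of the pair overlapped. The other inhibitory SMAD, Smad7, was at 42.1 TPM. The BMP-regulated SMADs were lower than Smad3, at 33.9 TPM for Smad5, 24.2 TPM for Smad1 and 7.50 TPM for Smad9.

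**Figure D1:**
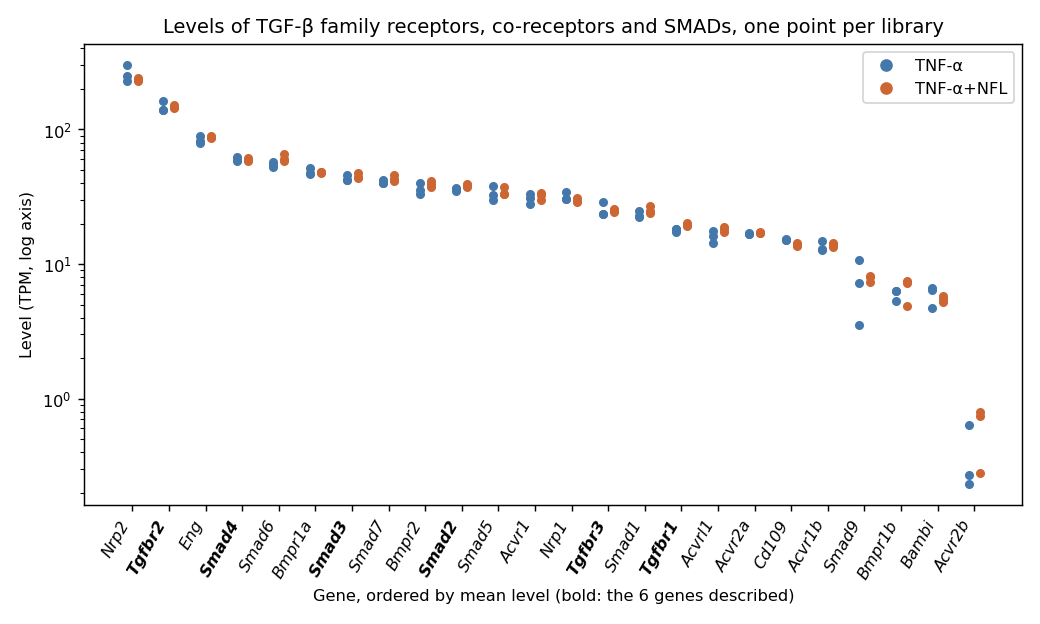
Level in TPM on a log axis of the 24 tested genes among the TGF-β family receptors, co-receptors and SMADs, ordered by mean level, with 1 point for each of the 3 TNF-α (blue) and 3 TNF-α+NFL (orange) libraries. Tgfbr2, between 139 and 163 TPM, stands second in this order, and Tgfbr1, between 17.4 and 20.1 TPM, lies in the lower part.

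The comparison of the groups asks whether NFL after TNF-α went with more or less RNA of the receptors and SMADs. Adjusted p-values here are those of the edgeR quasi-likelihood test unless another tool is named. Below an adjusted p of 0.05, 0 of the 6 genes were called, where 0.611% of all 13250 tested genes were. The count was also 0 with the DESeq2 Wald test, limma-voom, limma on FPKM and each of the other alternatives. Without adjustment, 1 of the 6 genes had an edgeR p under 0.05, where 11.1% of all tested genes did, 5.66% with higher and 5.45% with lower RNA in the TNF-α+NFL group. Of the 6 log2 fold changes, 3 were above 0 and 3 below, with a median of 0.0079 against -0.0035 for all tested genes. In bulk RNA, a change in the cells that carry an RNA and a change in the RNA of each cell cannot be told apart.

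Tgfbr1, the type I receptor kinase, was the gene that passed without adjustment. Its normalised count, in CPM (estimated counts scaled to library size), was 52.2, 54.0 and 52.3 in TNF-α replicates 1 to 3 and 58.4, 54.8 and 57.1 in TNF-α+NFL replicates 1 to 3. All 3 TNF-α+NFL libraries lay above all 3 TNF-α libraries, a separation in this direction that was found in 8.66% of all tested genes. None of the 6 genes was separated in the other direction, in which 8.17% of tested genes were. The nearest libraries of the groups, TNF-α replicate 2 and TNF-α+NFL replicate 2, were less than 1 CPM apart.

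The group means of Tgfbr1 were 52.8 ± 0.963 CPM (SD, n = 3) and 56.8 ± 1.78 CPM (SD, n = 3), so the TNF-α+NFL mean was 7.42% higher in the fit (95% interval 0.306% to 15.0%). The log2 fold change was 0.10 with a standard error of 0.046, and edgeR gave an unadjusted p of 0.042 and an adjusted p of 0.43. The exact permutation test gave p = 0.10, the smallest that 3 libraries against 3 allow (two-sided). By unadjusted p, Tgfbr1 ranked 1302 of the tested genes. In the fits that left out 1 library each, its log2 fold change stayed above 0 in 6 of 6, from 0.084 to 0.13, and the unadjusted p was under 0.05 in 3 of 6. Over all 15 alternatives the unadjusted p was under 0.05 in 7. It was 0.13 with the DESeq2 Wald test, and with the length trend of each library removed the log2 fold change of Tgfbr1 fell to 0.064, with an edgeR unadjusted p of 0.20.

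In TPM, Tgfbr1 was at 18.1, 18.1 and 17.4 in TNF-α replicates 1 to 3 and at 20.1, 19.1 and 19.6 in those of TNF-α+NFL. The groups did not overlap on this scale either. Smad2 was the other gene whose TPM did not overlap, and such a separation towards higher TPM was found in 11.6% of all tested genes, and one towards lower TPM in 5.06%.

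The summed levels of chondrocyte and macrophage markers did not overlap between the groups, although 0 of the tested markers of any list passed an adjusted p of 0.05. The 8 chondrocyte markers summed to between 439 and 488 TPM in the TNF-α libraries and to between 517 and 571 TPM in the TNF-α+NFL libraries. Most of this was Col11a1, with group means of 419.8 and 500.1 TPM, and without overlap between the groups. Col2a1, at 7.10 to 8.16 against 8.68 to 9.54 TPM, and Col9a1, at 0.73 to 0.79 against 0.91 to 1.10 TPM, did not overlap either. Sox9, Acan and Matn3 overlapped with a higher mean in the TNF-α+NFL group, and Comp and Hapln1 overlapped with a lower one. The 4 macrophage markers found summed to between 105 and 113 TPM in the TNF-α libraries and between 98.2 and 101 TPM in the TNF-α+NFL libraries. Of these only Cd14 did not overlap, at 66.85 to 68.63 against 58.35 to 64.46 TPM. Cd68, at 36.25 to 43.35 against 33.6 to 42.86 TPM, overlapped, as did Ptprc and Csf1r. The fibroblast-type markers (4408 to 4891 against 4872 to 5063 TPM) and the adipocyte markers (31.6 to 33.2 against 33.2 to 38.5 TPM) overlapped as sums. Within these lists Col1a1, Col1a2, Col3a1 and Pdgfrb overlapped. Thy1, with means of 2453 and 2677 TPM, and Fabp4, with 30.4 and 33.8 TPM, were higher in every TNF-α+NFL library than in any TNF-α library. Of all tested genes, 11.6% were separated towards higher and 5.06% towards lower TPM in the TNF-α+NFL group. The median gene was 0.026 higher there in TPM on the log2 scale. The part of the markers in the Tgfbr1 difference was not tested. Tgfbr1 was also the gene of the 6 whose estimated count was fractional, in 6 of 6 libraries, as estimates are where reads match more than 1 gene. The other 5 genes had whole counts in every library.

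Sequences upstream of the receptor genes are printed for Tgfbr1 and Tgfbr3, the receptors with the highest and lowest log2 fold change over all 6 libraries, to show how their start regions differ. Without TNF-α replicate 1 the lowest receptor was Tgfbr2. They are from RefSeq for the rat build GRCr8, on the plus strand, chr5:66449148-66449347 for Tgfbr1 and chr14:2634044-2634293 for Tgfbr3, and end just before the outermost annotated start of each gene, so that the stretches are 200 and 250 bases long. Capitals mark the GC box GGGCGG, the letters that Sp1 is known to bind, and the CCAAT box, each on either strand.
Tgfbr1: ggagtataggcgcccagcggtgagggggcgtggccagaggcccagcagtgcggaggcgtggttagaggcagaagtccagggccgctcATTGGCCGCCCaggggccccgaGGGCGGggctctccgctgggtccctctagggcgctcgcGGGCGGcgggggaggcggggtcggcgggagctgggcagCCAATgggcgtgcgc
Tgfbr3: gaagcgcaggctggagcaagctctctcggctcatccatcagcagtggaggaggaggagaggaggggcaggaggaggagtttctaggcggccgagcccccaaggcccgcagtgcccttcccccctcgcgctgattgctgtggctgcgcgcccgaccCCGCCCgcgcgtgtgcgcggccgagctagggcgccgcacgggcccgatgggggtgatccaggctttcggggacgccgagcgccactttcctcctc

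The Tgfbr1 stretch held 3 GC boxes and 2 CCAAT boxes, and a GC box and a CCAAT box adjoin in its first run of capitals. The Tgfbr3 stretch held 1 GC box and 0 CCAAT boxes. In the full 300-base windows around annotated starts, Tgfbr2 held 1 GC box and 2 CCAAT boxes, and Smad3 held 1 GC box and 0 CCAAT boxes. Smad2 has 2 overlapping windows, with 2 GC boxes and 2 CCAAT boxes in one, and 5 GC boxes and 1 CCAAT box in the other. Of all 33469 such windows, 33.1% held a GC box and 37.5% a CCAAT box on either strand. The window of Smad4 held 0 GC boxes and 1 CCAAT box and had a G and C content of 31.7%, against a median of 51.7%. The windows of the other 5 genes were above that median, at 59.0% to 82.7%. The part of this content in their GC boxes was not tested. The letters CAGAC, which SMADs are known to bind, were in none of the windows of the 6 genes and in 50.1% of all windows, on either strand. These matches are descriptions of letters and do not show binding.

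Tgfbr2, the type II receptor kinase, was nearly level between the groups. Its CPM was 383, 355 and 360.0 in TNF-α replicates 1 to 3 and 362, 368 and 361 in TNF-α+NFL replicates 1 to 3. TNF-α replicate 1 was the highest of the 6 libraries, and the remaining 5 lay close together. The fitted change was -0.817% (95% interval -6.54% to 5.25%), with an adjusted p of 0.95 by edgeR. The spread in the TNF-α group was 4.10% of its mean, against 1.07% in the TNF-α+NFL group.

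Tgfbr2 differed from the other 5 genes in the transcript length implied by its values. An estimated count and an FPKM value together give the effective length that the quantification used, which moves when reads are assigned to shorter or longer transcripts of a gene. For Tgfbr2 this length was 4703, 4944 and 4968 bases in TNF-α replicates 1 to 3, and 4954, 4889 and 4900 bases in those of TNF-α+NFL. TNF-α replicate 1 was thus the shortest, and the range over the libraries was 5.63% of the lowest value. Of 8438 tested genes with a mean of at least 5 FPKM, 9.24% had a wider range, and the median range was 0.272%. The range was 1.45% for Smad2 and between 0.105% and 0.165% for the other 4 genes.

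In TPM, which divides by this length, Tgfbr2 was at 163, 139 and 139 in TNF-α replicates 1 to 3, beside 383, 355 and 360.0 in CPM. The TPM of the median gene was shifted in the same libraries, by 0.024, -0.028 and -0.039 on the log2 scale against the mean of all 6. Leaving out that library moved the log2 fold change of Tgfbr2 from -0.012 to 0.023. Of the genes whose implied length ranged over more than 2%, 34.1% had TNF-α replicate 1 as the library farthest from their median, against 11.5% to 14.2% for each other library. The part of the implied length and of this shift in the Tgfbr2 level was not tested.

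Tgfbr3, the betaglycan co-receptor, had the widest spread of the 6 genes in the TNF-α group, but not in the TNF-α+NFL group. Its CPM was 57.4, 48.0 and 48.5 in TNF-α replicates 1 to 3 and 49.9, 48.4 and 51.2 in those of TNF-α+NFL. TNF-α replicate 1 was again the highest library, above all 3 of the other group, while the other TNF-α libraries lay at the low end, beside TNF-α+NFL replicate 2. The fitted change was -2.82% (95% interval -12.0% to 7.29%), with an adjusted p of 0.89 by edgeR. Leaving out that library moved the log2 fold change from -0.041 to 0.048, so the direction rested on that library. The spread was 10.3% of the mean in the TNF-α group and 2.78% in the TNF-α+NFL group.

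**Figure D2:**
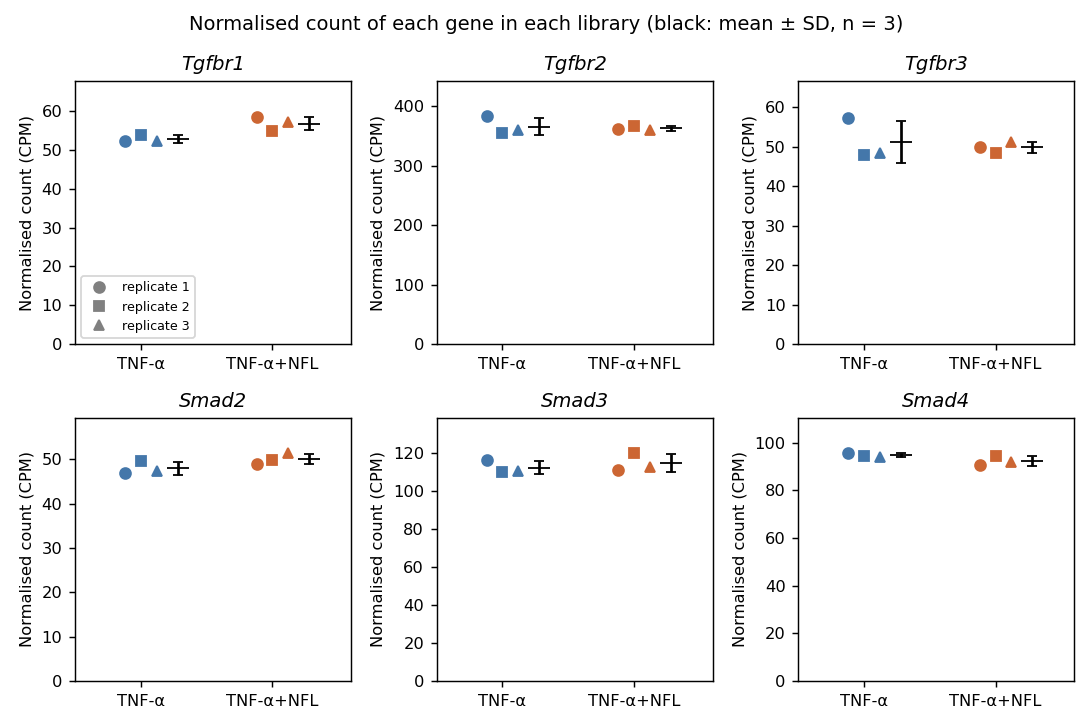
Normalised count (CPM, axis from 0) of each of the 6 genes in each library, by group and replicate, with the mean and SD of each group (n = 3) in black. Tgfbr1 shows all 3 TNF-α+NFL libraries above the TNF-α libraries, whereas Tgfbr2 and Tgfbr3 show TNF-α replicate 1 above the other libraries, at 383 and 57.4 CPM.

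Smad2, a receptor-regulated SMAD, had the second highest log2 fold change of the 6, 0.063. Its CPM was 46.8, 49.6 and 47.5 in TNF-α replicates 1 to 3 and 49.1, 49.9 and 51.4 in TNF-α+NFL replicates 1 to 3. The groups overlapped only through TNF-α replicate 2, which lay above TNF-α+NFL replicate 1. The fitted change was 4.48% (95% interval -2.69% to 12.2%), with an adjusted p of 0.69 by edgeR and p = 0.20 from the exact permutation test (two-sided). On the TPM scale the groups did not overlap, at 36.2, 36.7 and 34.8 against 37.4, 38.7 and 39.1. The median gene was 0.026 higher in TPM in the TNF-α+NFL group on the log2 scale, against a log2 ratio of 0.097 for Smad2 and of 0.14 for Tgfbr1 in TPM.

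Smad3, the second receptor-regulated SMAD, overlapped between the groups. Its CPM was 116, 110.4 and 111 in TNF-α replicates 1 to 3 and 111, 120.1 and 113 in those of TNF-α+NFL. The highest library was TNF-α+NFL replicate 2 and the next was TNF-α replicate 1. The fitted change was 1.93% (95% interval -4.57% to 8.88%), with an adjusted p of 0.89 by edgeR. Its direction turned without TNF-α+NFL replicate 2, at a log2 fold change of -0.0064.

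Smad4, the common SMAD, was the steadiest of the 6 genes in the TNF-α group, with a spread of 0.921% of the mean. Its CPM was 95.7, 94.5 and 94.0 in TNF-α replicates 1 to 3 and 90.5, 94.5 and 92.0 in TNF-α+NFL replicates 1 to 3. TNF-α+NFL replicates 1 and 3 lay below every TNF-α library, and TNF-α+NFL replicate 2 lay among them. For Smad4 the fit gave -2.55% (95% interval -8.28% to 3.54%), with an adjusted p of 0.81 by edgeR. The log2 fold change was below 0 in 6 of 6 fits that left out 1 library, from -0.054 to -0.021.

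The intervals show what size of change these libraries could still hold. For each of the 6 genes the 95% interval lay between -0.18 and 0.20 on the log2 scale, inside the range from -0.23 to 0.25 that held the fold changes of the middle 90% of tested genes. The widest interval was that of Tgfbr3 and the narrowest that of Tgfbr2, and the estimated counts behind the 6 genes ran from 895 to 7325 in a library. An adjusted p above 0.05 does not show that the groups were equal.

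**Figure D3:**
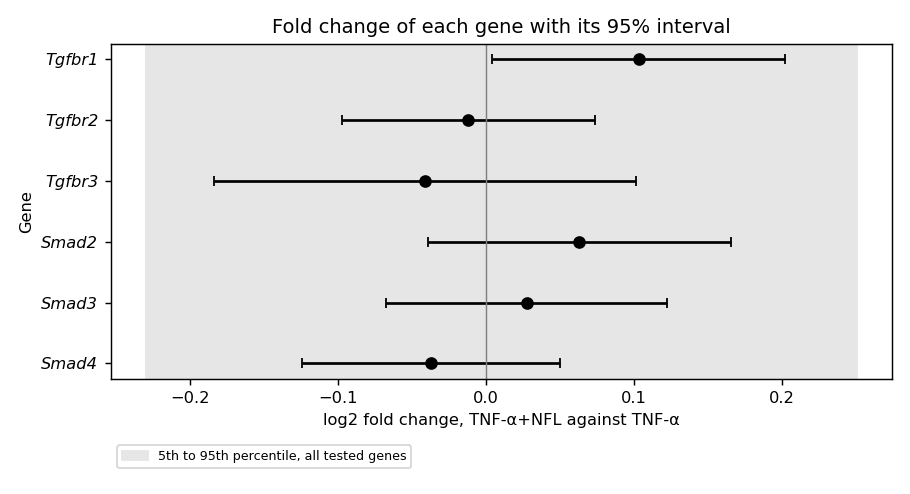
log2 fold change of each gene in the TNF-α+NFL group against the TNF-α group (points) with its 95% interval (bars), over a grey band from the 5th to the 95th percentile of all tested genes. Tgfbr1 has the highest value, 0.10, with an interval that starts at 0.0044, and the other 5 intervals cover 0.

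Ratios between the genes within a library do not depend on how the library was scaled. The TPM ratio of Tgfbr2 to Tgfbr1 was 9.02, 7.71 and 8.01 in TNF-α replicates 1 to 3 and 7.24, 7.92 and 7.45 in those of TNF-α+NFL, so the groups overlapped. Tgfbr2 was 5.63 to 6.16 times Tgfbr3 over the 6 libraries, and Smad3 was 1.12 to 1.26 times Smad2, with overlap in both. The summed TPM of Smad2 and Smad3 over that of Smad4 was 1.31, 1.32 and 1.30 in TNF-α replicates 1 to 3 and 1.38, 1.39 and 1.39 in TNF-α+NFL replicates 1 to 3. This was the single one of the 4 ratios whose groups did not overlap, and it is given as a description with no test. No share over other ratios was computed, and among single genes 11.6% were separated towards higher and 5.06% towards lower TPM.

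**Figure D4:**
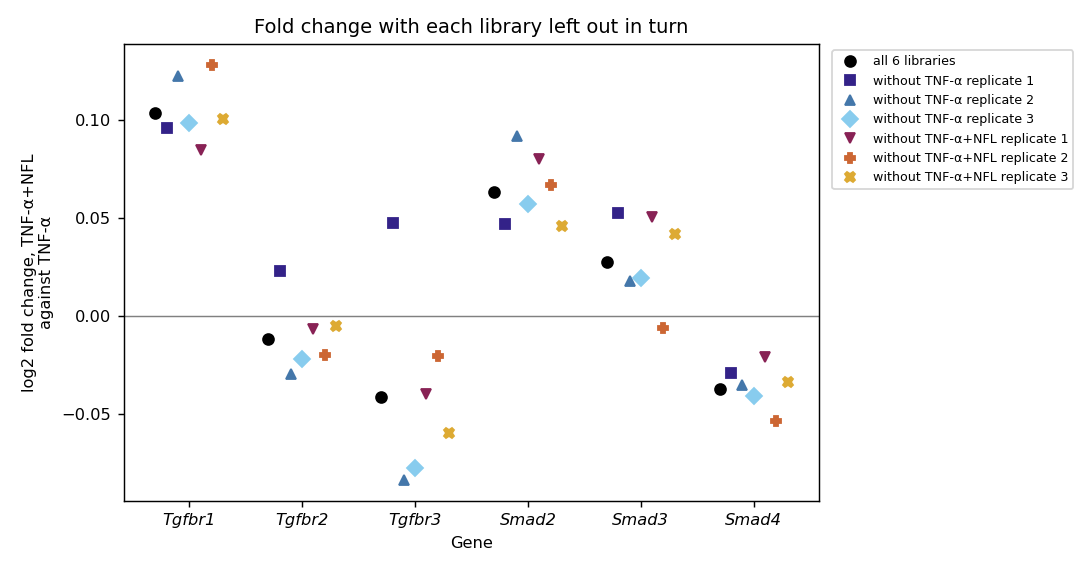
log2 fold change of each gene with all 6 libraries (black) and with each library left out in turn (colours and shapes). Tgfbr1 and Smad2 stay above 0 and Smad4 below 0 in every fit shown, whereas Tgfbr2, Tgfbr3 and Smad3 cross 0 when 1 library is left out.

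For each gene, the most similar pattern among the 13244 other tested genes was taken as the highest Pearson correlation of log2 CPM over the 6 libraries, as a description. Tgfbr1 was most like Smc6, part of a complex for DNA repair, at r = 0.993, and Tgfbr2 was most like Usp22, a deubiquitinase, at r = 0.996. Tgfbr3 was most like Nr2c2, an orphan nuclear receptor, at r = 0.991, and Smad2 was most like Ggta1, a galactosyltransferase, at r = 0.984. Smad3 was most like Npr1, a natriuretic peptide receptor, at r = 0.990, and Smad4 was most like Ripor3 at r = 0.996. Between 14 and 82 genes exceeded r = 0.95 for each of the 6, and all points share the 6 libraries. Each match is the highest of 13244 correlations over 6 points, so it does not show co-regulation. The number of such matches that chance alone would give was not computed. On the log2(FPKM + 1) scale the r of Smad2 with Ggta1 was 0.783.

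The other genes of the pathway were described by role, from 9 lists with 98 symbols, of which 97 were in the table and 94 were tested. Past an edgeR adjusted p of 0.05, 4 of the 94 genes were higher in the TNF-α+NFL group, where 0.408% of all tested genes were, and 0 were lower, where 0.204% were. Without adjustment, 13 of the 94 were higher and 9 lower at a p under 0.05, where 5.66% and 5.45% of all tested genes were. The lists were chosen with earlier results known, so these shares are no independent evidence about the pathway. The median log2 fold change over the 94 genes was 0.035. The 4 genes were 2 ligands and 2 targets.

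Of the 3 ligand genes, Tgfb3 and Tgfb2 were higher in the TNF-α+NFL group and Tgfb1 had a log2 fold change of 0.0014. The level of Tgfb3 was between 350 and 361 TPM in the TNF-α group and between 501 and 510 TPM in the TNF-α+NFL group, with a log2 fold change of 0.47 in CPM. Tgfb2 was between 117 and 122 TPM in the TNF-α group and between 139 and 148 TPM in the other. Tgfb3 stayed past an adjusted p of 0.05 in 6 of 6 fits that left out 1 library and Tgfb2 in 1 of 6. The log2 fold change of Tgfb2, 0.23 over all 6 libraries, stayed between 0.21 and 0.25 in those fits. Over all 15 alternatives Tgfb3 was called in 15 and Tgfb2 in 7.

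Of the 13 tested genes for other family receptors and co-receptors, 0 passed an edgeR adjusted p of 0.05 with TMM scaling of all 6 libraries, against 2 lower genes with the length trend removed, and the median log2 fold change was 0.0028. The smallest p-values were those of Bmpr2, with a log2 fold change of 0.15 and an edgeR adjusted p of 0.19, and Cd109, a co-receptor that limits TGF-β signaling, with -0.15 and 0.26. Both were called without TNF-α replicate 1, at edgeR adjusted p-values of 0.014 and 0.047. Calls over all tested genes were also the most in that fit. This bears equally on the genes named below as called without that library. Of the 5 other SMADs 0 passed, with a median of 0.084. Smad6 had a log2 fold change of 0.084, or 0.051 without TNF-α replicate 1, and Smad1 of 0.090, or 0.042 without TNF-α+NFL replicate 2.

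Genes that handle the receptors and SMADs inside the cell gave 0 calls in edgeR with TMM scaling of all 6 libraries. Over the 10 adaptor genes the median was 0.025 on the log2 scale, with Dab2, an endocytic adaptor, at -0.11 and Cav1, which encodes caveolin, at 0.082. Without TNF-α replicate 1 Dab2 was at -0.043 and Cav1 at 0.037. The 17 genes of turnover had a median of 0.033. Their smallest p-values were those of Smurf1, a ubiquitin ligase for the receptors, at a log2 fold change of 0.11, and Usp9x, a deubiquitinase known to act on SMAD4, at 0.098. Usp9x was called without TNF-α replicate 1, at 0.13 with an edgeR adjusted p of 0.017, and was at 0.041 with the length trend removed. The 8 genes of nuclear transport had a median of 0.035, with Xpo1, an exportin, at 0.063 and Ipo8, listed as LOC686774, at 0.091. Leaving out TNF-α replicates 1, 2 and 3 in turn gave 0.052, 0.17 and 0.060 for LOC686774. The 10 genes of the non-SMAD arm had a median of 0.0091, with Traf4 at -0.11 and the low gene Pard6a at -0.39. Traf4 was at -0.047 without TNF-α+NFL replicate 1, where Pard6a was at -0.23, and Pard6a was at -0.62 and -0.17 when TNF-α replicates 1 and 3 were left out in turn.

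The 16 tested transcription partners of the SMADs also gave 0 calls in edgeR with the filter on low counts and TMM scaling, with a median log2 fold change of 0.037. Zeb2, a repressor that binds SMADs, had a log2 fold change of 0.21 (adjusted p = 0.080 by edgeR). Skil, which encodes the SMAD co-repressor SnoN, had 0.16 (adjusted p = 0.10 from the same test). In CPM all 3 TNF-α+NFL libraries lay above the TNF-α libraries for both, whereas in TPM Zeb2 was highest in TNF-α replicate 1, at 73.5 against 66.8 to 71.2 in the TNF-α+NFL libraries. Zeb2 was called by the DESeq2 Wald test, at an adjusted p of 0.012, and by edgeR with no filter on low counts (0.034), with the length trend removed (0.013) and without TNF-α replicate 1 (7.0e-05). These were 4 of 15 alternatives, and limma on log2(FPKM + 1) gave Zeb2 a log2 fold change of 0.14 with an adjusted p of 0.63. Skil was called by edgeR without TNF-α replicate 1, at an adjusted p of 0.0019.

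Of the 12 TGF-β target genes, 2 were higher in the TNF-α+NFL group and 0 were lower, with a median log2 fold change of 0.066. Acta2, which encodes smooth muscle actin, averaged 2090.1 ± 109 CPM (SD, n = 3) over TNF-α libraries and 2542 ± 64.2 CPM (SD, n = 3) over TNF-α+NFL libraries. The difference was 0.28 on the log2 scale, with a standard error of 0.043 and an adjusted p of 0.010 by edgeR. Acta2 was past an adjusted p of 0.05 in 2 of 6 fits that left out 1 library, where its log2 fold change stayed between 0.24 and 0.31. Over all 15 alternatives it was called in 9, and limma on FPKM did not call it with either pseudocount.

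The count over these lists moved with the libraries used, from 4 higher and 0 lower genes to 13 and 2 without TNF-α replicate 1. Over all tested genes the calls also rose most without that library, in both directions. The count over the lists fell to 1 higher gene without TNF-α replicate 2 and without each of the 3 TNF-α+NFL replicates in turn. The 6 receptor and SMAD genes gave 0 calls in each of these fits.

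**Figure D5:**
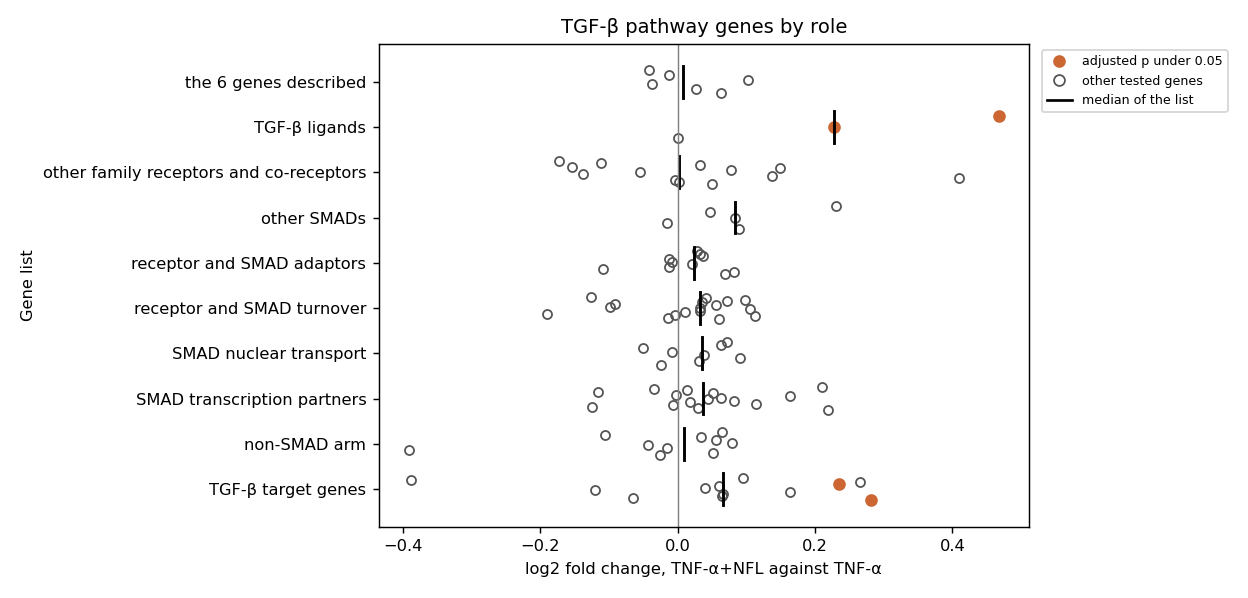
log2 fold change, TNF-α+NFL against TNF-α, of each tested gene (circles) by role, with the median of each list (black line) and genes at an adjusted p under 0.05 filled. The filled genes are the ligands Tgfb2 and Tgfb3 and 2 targets, Acta2 among them, and the 6 receptor and SMAD genes lie between -0.041 and 0.10.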

How the data were processed

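RNA of 6 libraries was read as single-end sequences. The submitters' processing notes name HISAT2 2.0.4, Bowtie2 2.2.5, RSEM 1.2.12 and the build Rnor_6.0, with no role given, and the annotation is not given in the sources used here. For every gene and library the deposited table holds 3 values made by the authors, namely an estimated count, FPKM and TPM, with replicates kept apart. FPKM is scaled to transcript length and reads, and TPM also to an equal sum in each library. Estimated counts divide reads that match several genes, which can blur near-identical copies.

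After rounding of the estimated counts, genes passing filterByExpr were scaled by TMM and compared with the robust quasi-likelihood test of edgeR 4.0.16 (R 4.3.3), with two-sided p-values adjusted by Benjamini-Hochberg over 13250 genes. The standard error was the log2 fold change divided by the square root of F, and 95% intervals used the t distribution. Alternatives used DESeq2 1.42.0, limma 3.58.1, pseudocounts of 1 and 0.1 for FPKM, other filters and scalings, and each library left out. The fit was tested on simulated counts. Implied length was the estimated count over FPKM and library total, and leaving out libraries for it was chosen after seeing the data. RefSeq GRCr8, which matched 17068 of 18420 gene IDs, gave names and promoter sequence only.

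Named genes were the 6 genes, the members of each list past an adjusted p of 0.05 or else the 2 with the smallest p, the gene most like each of the 6, and cell type markers, except 1 gene that is counted but not reported here. Levels of other receptors and SMADs were added to show the family. The members and lists were chosen with earlier results of these data known.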

Additional observations from a re-analysis of the deposited data

How the results depend on the processing

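The 6 receptor and SMAD genes gave 0 calls at an adjusted p under 0.05 in each of the 15 alternatives, with the lowest adjusted p at 0.25 for Tgfbr1 and between 0.51 and 0.70 for the others. Directions turned for Tgfbr2, at 0.023, and Tgfbr3, at 0.048, without TNF-α replicate 1, and for Smad3, at -0.0064 without TNF-α+NFL replicate 2 and -0.0060 after removal of the length trend of each library. Leaving out 1 library gave ranges of -0.029 to 0.023 for Tgfbr2, -0.084 to 0.048 for Tgfbr3 and -0.0064 to 0.052 for Smad3. The cause was not tested.

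Over all genes, 54 were higher and 27 lower, against 84 and 48 with no filter on low counts, 95 and 53 with the DESeq2 Wald test, 3 and 3 with limma on log2(FPKM + 1), 7 and 6 on log2(FPKM + 0.1), and 151 and 83 with the length trend removed. Leaving out 1 library gave 5 to 460 higher and 0 to 470 lower genes, with the most without TNF-α replicate 1. Over the pathway lists, 4 higher and 0 lower genes became 7 higher with the DESeq2 Wald test, 1 with either FPKM test, and 8 higher and 2 lower with the length trend removed. Leaving out 1 library gave 1 to 13 higher and 0 to 2 lower. When replicate numbers entered the fit as a block there were 25 higher and 9 lower genes, and 2 higher on the pathway lists. Deviations of same-numbered libraries correlated at 0.030, -0.024 and 0.10. The sources used here give no pairing, and these correlations cannot show whether same-numbered libraries shared an animal or culture.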
